A study of Mus musculus with 34 samples.

Results

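Ccl21a, Ccl21b, Gm13304, Gm21541, Gm10591, Ccl27a, Gm13306, Fam205a2, Fam205a3 and Fam205a4 are 10 mouse genes that lie within 1 stretch of chromosome 4 and are copies of 3 genes. They were picked by symbol from a table of 16389 genes in brain tissue, with earlier results of these data known, and all 10 passed the filter on low values that left 14710 genes to test. The contrasts of treatments were among those results, so the members' levels, differences and calls are a description, and their adjusted p values only place each gene among all genes tested.

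CCL21 is a chemokine of lymphoid stroma and lymphatic vessels that draws dendritic cells and T cells to lymph nodes through the receptor CCR7, and CCL19 is the other ligand of that receptor. CCL27 is a chemokine best known from skin keratinocytes and acts through CCR10. In the mouse the Ccl21 and Ccl27 genes were copied together with their neighbours, among them the receptor gene Il11ra and the little studied Fam205a genes. Reads of near-identical copies cannot be placed with certainty, so the copies are described as a Ccl21 group (Ccl21a, Ccl21b, Gm13304, Gm21541, Gm10591), a Ccl27a group (Ccl27a, Gm13306) and a Fam205a group (Fam205a2, Fam205a3, Fam205a4), each also summed within a library.

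The study asked what lasts in the brain after microglia are replaced by bone marrow-derived myeloid cells. Bulk RNA was sequenced from cortex, hippocampus and thalamus (dissected together with striatum) of perfused male C57BL/6 mice, 1.5 months old at the start by the methods (an older age at irradiation is also stated), in 34 libraries of 12 animals. WT CON mice (11 libraries) had neither irradiation nor transplant nor inhibitor. GFP-BM CON mice (11 libraries) had whole-body irradiation at 1000 cGy, the head included, and bone marrow from CAG-EGFP donors, in which the CAG promoter drives EGFP broadly. GFP-BM REPOP mice (12 libraries) had the same irradiation and marrow, then after 3.5 months the CSF1R inhibitor PLX3397 at 600 ppm in chow for 14 days, which removes microglia, and 6 months on control chow. GFP-BM CON differs from WT CON in irradiation and marrow together, and GFP-BM REPOP from GFP-BM CON in the inhibitor and the repopulation together. In that order of treatments there were 3, 4 and 4 libraries of cortex, 4 of each of hippocampus, and 4, 3 and 4 of thalamus. Libraries of a treatment with the same number in the code of their title were taken as 1 animal. The replicate numbers given here match animals across all 3 regions only in GFP-BM REPOP. WT CON cortex replicate 1 shares its animal with hippocampus and thalamus replicate 2, and GFP-BM CON thalamus replicate 3 with cortex replicate 4.

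Library depth was 17085018 to 26010509 reads over the genes of the table, and 17085018 to 23252664 in GFP-BM REPOP. Levels are FPKM, the reads of a gene scaled to the length of the gene and to the reads of the library. Summed cortex markers were 150 to 196 FPKM in cortical libraries and 40.4 to 57.9 in thalamic ones. Summed hippocampus markers were under 20 FPKM in 3 of 12 hippocampal libraries (WT CON replicate 2 at 14.6, GFP-BM REPOP replicate 1 at 12.2 and replicate 4 at 19.3), which goes against their label, so each hippocampal result is also given without them where it moves. Striatum markers summed to 1166 FPKM in GFP-BM REPOP hippocampus replicate 4 and to 45.8 to 384 FPKM in the other hippocampal libraries, and choroid plexus markers to 23.0 to 6488 FPKM over the WT CON hippocampi. A list of genes of engrafted monocyte-derived cells (Ms4a7, Lyz2, Apobec1, Mrc1, Clec7a) summed to 8.08 to 9.45 FPKM in WT CON cortex, 11.8 to 20.1 in GFP-BM CON cortex and 59.4 to 95.8 in GFP-BM REPOP cortex.

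The 5 genes of the Ccl21 group are near-identical. In the GRCm38 annotation the coding sequences of Ccl21b, Gm13304, Gm21541 and Gm10591 are identical over 402 bases, and Ccl21a differs from them at 2 positions, T84A and C194T (counted from 1 at the first base of the start codon, the base of Ccl21a first). The stretch from base 60 to base 218 holds both positions, in capitals, and is shown because those bases are all that separates Ccl21a from the other copies in coding sequence. The second sequence is shared by all 4 other copies.
Ccl21a: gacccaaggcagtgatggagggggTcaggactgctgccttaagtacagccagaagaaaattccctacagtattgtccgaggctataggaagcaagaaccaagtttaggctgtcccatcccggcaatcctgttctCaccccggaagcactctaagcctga
Ccl21b: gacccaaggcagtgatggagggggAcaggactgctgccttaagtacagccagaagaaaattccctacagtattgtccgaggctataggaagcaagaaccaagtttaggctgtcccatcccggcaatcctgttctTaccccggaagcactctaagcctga

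The bases just before the gene starts are as alike in Ccl21a, Gm13304, Gm21541 and Gm10591. Those before Ccl21b were not compared. The 249 bases before Ccl21a (chr4:42773992-42774240, minus strand) and before Gm13304 (chr4:42114537-42114785, plus strand), both from RefSeq on GRCm38.p6, differ at 2 positions, again in capitals. The window of Gm10591 (chr4:42611873-42612121, plus strand) is identical to that of Gm13304, and that of Gm21541 (chr4:41903363-41903611, plus strand) differs from that of Ccl21a at 1 position. They are shown because all 5 Ccl21 genes were highest in the same GFP-BM REPOP animal, as described below.
Ccl21a: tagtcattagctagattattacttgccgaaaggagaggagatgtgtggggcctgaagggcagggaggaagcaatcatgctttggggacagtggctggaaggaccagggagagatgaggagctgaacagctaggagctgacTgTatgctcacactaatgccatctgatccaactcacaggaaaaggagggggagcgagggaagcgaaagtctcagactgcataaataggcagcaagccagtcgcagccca
Gm13304: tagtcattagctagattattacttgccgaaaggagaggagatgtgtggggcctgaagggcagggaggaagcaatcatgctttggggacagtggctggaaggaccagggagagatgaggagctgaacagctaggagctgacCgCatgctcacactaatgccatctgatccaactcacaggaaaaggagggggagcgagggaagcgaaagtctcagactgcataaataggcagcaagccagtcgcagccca

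Ccl27a and Gm13306 differ at 3 of 363 coding bases (C177T, G297A and A343C, counted in the same way with Ccl27a first), and the coding sequence of Gm13306 is identical to that of the gene annotated as Ccl27b. Fam205a2, Fam205a3 and Fam205a4 have identical coding sequences of 3927 bases. In GRCm38.p6 the stretch runs on chromosome 4 from Ccl27a (chr4:41769467-41774225) through Gm21541 (chr4:41903613-41904743, Ccl21d in RefSeq), Fam205a4 (chr4:41942295-41971858), Gm13304 (chr4:42114787-42115917), Gm13306 (chr4:42153404-42158846), Ccl21b (chr4:42173120-42256825), Fam205a3 (chr4:42294525-42324072), Fam205a2 (chr4:42522437-42537578) and Gm10591 (chr4:42612123-42613253) to Ccl21a (chr4:42772860-42773991). All 10 are annotated as protein coding. The reads were aligned to mm10, the same assembly.

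In cortex the chemokine genes of the Ccl21 group were far lower in 3 of 4 GFP-BM REPOP animals than in any other mouse. Ccl21b stood at 24.3, 37.9 and 34.5 FPKM in WT CON cortex and at 25.2, 24.8, 24.8 and 26.4 FPKM in GFP-BM CON cortex. In GFP-BM REPOP cortex it stood at 0.687, 24.1, 0.719 and 0.502 FPKM in replicates 1 to 4. Replicate 2 was thus just under the lowest control library, and replicates 1, 3 and 4 were far under it. In reads, Ccl21b had 451, 725 and 699 in WT CON, 507, 405, 401 and 455 in GFP-BM CON, and 11, 348, 12 and 8 in GFP-BM REPOP, so the low values rest on few reads.

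**Figure D1:**
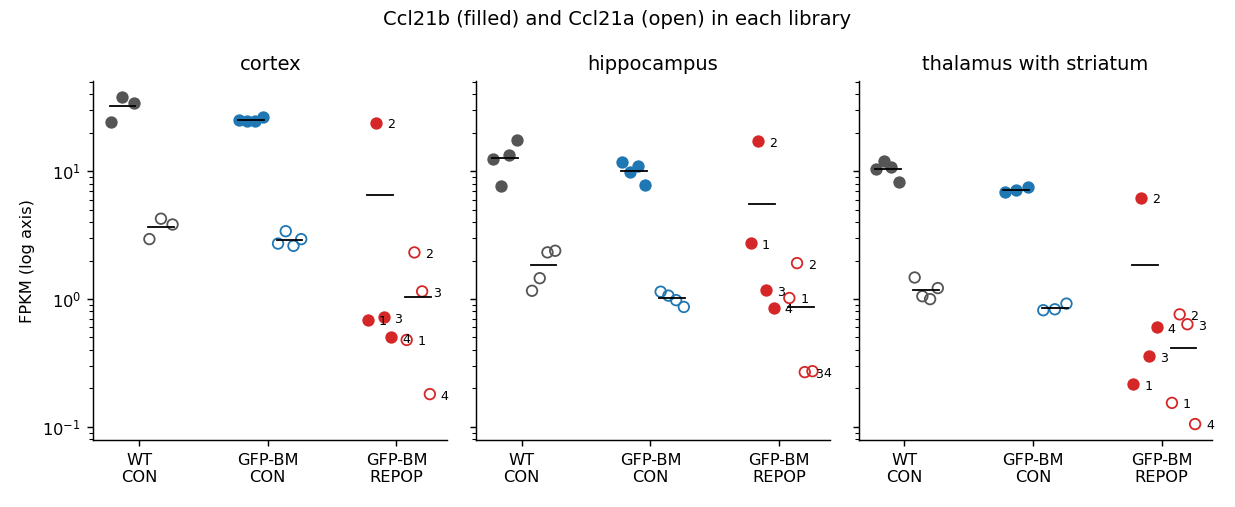
FPKM of Ccl21b (filled points) and Ccl21a (open points) on a log axis, 1 point per library, by region and treatment, with horizontal bars at the group means and replicate numbers beside the GFP-BM REPOP points. For Ccl21b in cortex, GFP-BM REPOP replicate 2 (24.1 FPKM) lies just under the control libraries (24.3 to 37.9 FPKM), and replicates 1, 3 and 4 lie between 0.502 and 0.719 FPKM.

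The other copies had the same pattern. The sum of the 5 genes was 83.1, 127 and 119 FPKM in WT CON cortex, 86.6, 86.5, 82.9 and 91.6 FPKM in GFP-BM CON cortex, and 3.07, 82.7, 3.92 and 2.12 FPKM in GFP-BM REPOP cortex. Relative to the WT CON mean of 110 ± 23.3 FPKM (SD, n = 3), the 4 GFP-BM REPOP animals had 2.80%, 75.5%, 3.58% and 1.93% of the Ccl21 sum. Gm13304, Gm21541 and Gm10591 ranged from 17.6 to 31.9 FPKM in WT CON cortex, from 17.3 to 22.2 FPKM in GFP-BM CON cortex and from 0.475 to 19.2 FPKM in GFP-BM REPOP cortex, always with replicate 2 highest. Ccl21a, the lowest of the copies in WT CON and GFP-BM CON, stood at 2.95, 4.25 and 3.83 FPKM in WT CON, 2.72, 3.40, 2.61 and 2.94 FPKM in GFP-BM CON, and 0.478, 2.32, 1.15 and 0.180 FPKM in GFP-BM REPOP. All 4 GFP-BM REPOP values of Ccl21a were below those of WT CON and of GFP-BM CON, and replicate 2 was again the highest of the 4.

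In the main fit no Ccl21 gene was called in cortex with all animals kept, where the spread within GFP-BM REPOP was 11.7 FPKM (SD, n = 4) around a mean of 6.49 FPKM for Ccl21b. On the log2(FPKM + 0.1) scale, the difference of GFP-BM REPOP from WT CON in cortex was -4.18 (SE 0.99, adjusted p = 0.091 by limma) for Ccl21b, -2.16 (SE 0.54, adjusted p = 0.115) for Ccl21a and -3.95 (SE 0.94, adjusted p = 0.094) for the sum. Without GFP-BM REPOP replicate 2 the difference for Ccl21b was -5.45 (adjusted p = 1.8e-08) and for Ccl21a -2.67 (adjusted p = 0.0144), so that in this fit 1 library decides both calls. With limma-voom on read counts and all animals kept, the sum was called against WT CON, at -4.08 (adjusted p = 0.0134). Against GFP-BM CON the difference in cortex was -3.86 (adjusted p = 0.357) for Ccl21b with all 4 animals and -5.12 (adjusted p = 1.7e-08) without replicate 2. Each library was left out in turn, and nothing in the labels sets replicate 2 apart. With all animals kept, 0 of the 10 genes were called between the irradiated groups in cortex, where 0.0476% of all genes were called, and 0 of 10 in thalamus, where 0% were.

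The same animals were low in the other regions. In thalamus Ccl21b stood at 10.4, 12, 10.8 and 8.19 FPKM in WT CON, at 6.93, 7.13 and 7.49 FPKM in GFP-BM CON, and at 0.214, 6.22, 0.357 and 0.603 FPKM in GFP-BM REPOP. All 4 GFP-BM REPOP values were below all control values, replicate 2 by the smallest margin. Ccl21a in thalamus was 1.47, 1.05, 0.998 and 1.22 FPKM in WT CON, 0.817, 0.831 and 0.920 FPKM in GFP-BM CON, and 0.154, 0.758, 0.634 and 0.105 FPKM in GFP-BM REPOP, with the 3 treatments not overlapping. The Ccl21 sum in the 4 GFP-BM REPOP thalami was 2.86%, 59.6%, 5.87% and 7.41% of the WT CON mean of 34.3 ± 4.25 FPKM (SD, n = 4). Its difference from WT CON was -3.36 on the log2 scale (SE 0.69, adjusted p = 0.0527 by limma), and -4.23 (adjusted p = 0.000349) without replicate 2.

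In hippocampus the pattern across animals was alike but replicate 2 stood higher. Ccl21b stood at 12.4, 7.72, 13.3 and 17.5 FPKM in WT CON, at 11.7, 9.79, 11.0 and 7.76 FPKM in GFP-BM CON, and at 2.73, 17.2, 1.17 and 0.853 FPKM in GFP-BM REPOP. Replicate 2 was within the WT CON range, and the other 3 GFP-BM REPOP libraries were below all 8 control libraries. The Ccl21 sum of the 4 GFP-BM REPOP hippocampi was 22.3%, 133%, 10.4% and 8.22% of the WT CON mean of 42.1 ± 12.9 FPKM (SD, n = 4). Its difference from WT CON was -2.08 on the log2 scale (adjusted p = 0.391 by limma), and -2.93 (adjusted p = 0.0175) without replicate 2. Ccl21a differed by -1.31 (adjusted p = 0.464), with values of 1.16, 1.46, 2.32 and 2.39 FPKM in WT CON and 1.02, 1.91, 0.268 and 0.272 FPKM in GFP-BM REPOP. GFP-BM REPOP replicates 1 and 4, the highest and the lowest of the 3 low animals for Ccl21b, are both among the libraries with few hippocampus markers.

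Between animals within GFP-BM REPOP, replicate 2 was highest in all 3 regions for the Ccl21 genes. This held for 5 of the 10 genes, all of the Ccl21 group, and for none of the other 5. Among all genes tested, replicate 2 was the highest of the 4 in all 3 regions for 1.48%, and replicates 1, 3 and 4 for 2.73%, 1.44% and 1.67%. After centring on the region mean, 92.1% of the variance of the Ccl21 sum over the 34 libraries lay between animals, against a median of 39.5% and a 95th percentile of 64.2% over all genes tested. The share was 82.6% for Ccl21a, 35.6% for the Ccl27a sum and 47.3% for the Fam205a sum. After centring on region and treatment it was 89.8% for the Ccl21 sum, against a median of 31.8% and a 95th percentile of 55.5% over all genes, 52.7% for the Ccl27a sum and 47.4% for the Fam205a sum. These shares use the low and high animals that led to the choice of the genes and are a description.

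**Figure D2:**
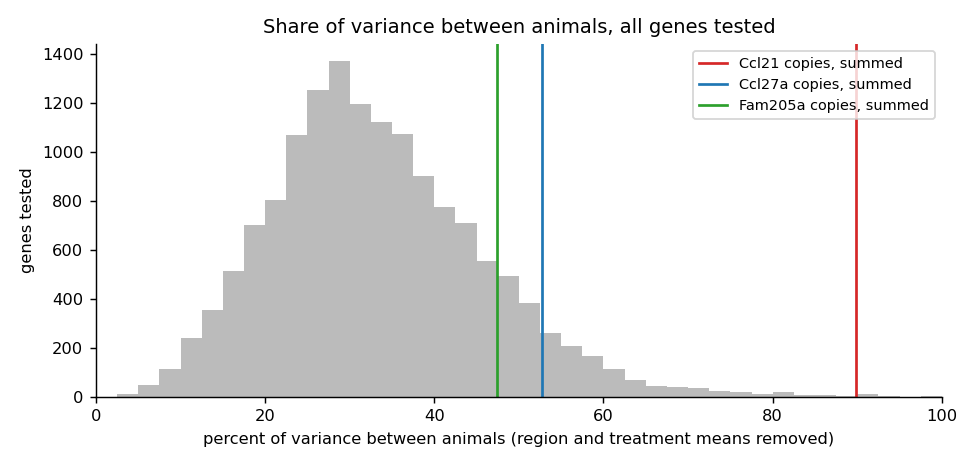
Share of the variance that lies between animals after region and treatment means were removed, in percent, as a histogram over all genes tested (y axis: number of genes), with lines at the 3 summed groups. The Ccl21 sum lies at 89.8%, above the 95th percentile of all genes (55.5%), and the Ccl27a and Fam205a sums lie at 52.7% and 47.4%, above the median (31.8%).

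The engrafted-cell list did not single out replicate 2 in 1 direction. It summed to 83.7, 59.4, 60.0 and 95.8 FPKM in GFP-BM REPOP cortex, to 47.7, 113.5, 89.3 and 135.4 FPKM in hippocampus and to 168.8, 108.5, 124.0 and 190.1 FPKM in thalamus. Replicate 2 was thus the lowest of the 4 in cortex and thalamus and the second highest in hippocampus, and the part of these cells in the Ccl21 levels was not tested. Microglial genes did not single out replicate 2 in cortex. P2ry12, a receptor gene of microglia, was highest in replicate 2 in cortex (4.17, 5.70, 4.45 and 4.14 FPKM) and hippocampus (2.10, 5.56, 1.17 and 2.81 FPKM) and second highest in thalamus (3.83, 4.95, 5.89 and 3.55 FPKM). The microglial genes Tmem119 (7.22, 4.88, 4.61 and 4.88 FPKM) and Siglech (2.55, 2.32, 1.99 and 1.80 FPKM) were highest in replicate 1 in cortex. Both were highest in replicate 2 in hippocampus and thalamus. Choroid plexus markers were highest in replicate 2 in cortex (188, 369, 89.1 and 53.4 FPKM) and hippocampus (77.7, 287, 173 and 260 FPKM), but not in thalamus (99.3, 404, 135 and 632 FPKM). The part of these cells was not tested either. Of the 5 lymphatic endothelium markers, Flt4, Pdpn and Reln are in the table, and they summed to 13.9 to 15 FPKM in WT CON cortex and 13.2 to 15.3 FPKM in GFP-BM REPOP cortex. Lyve1 and Mmrn1 were not analysed here, and whether lymphatic endothelium differed between the treatments was not tested. In bulk tissue, fewer cells of a type and less RNA per cell cannot be told apart.

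With identical coding sequences, Ccl21b, Gm13304, Gm21541 and Gm10591 cannot count as 4 measurements. In replicates 1, 3 and 4 of GFP-BM REPOP the read counts of Ccl21b, Gm13304, Gm21541 and Gm10591 were within 10 to 11, 12 to 12 and 8 to 8 in cortex, 28 to 41, 18 to 21 and 14 to 15 in hippocampus, and 4 to 4, 7 to 7 and 10 to 14 in thalamus. In the 22 control libraries the difference between the highest and the lowest of the 4 copies was 22 to 202 reads, or 18.1% to 34.8% of the highest. It was 0% to 14.3% of the highest in 7 of the 9 low libraries, 31.7% in hippocampus replicate 1 and 28.6% in thalamus replicate 4. Ccl21a had 9.18% to 19.7% of the reads of Ccl21b in the 22 control libraries, with a median of 11.7%, and 10.1% to 12.7% in the 3 libraries of GFP-BM REPOP replicate 2. In the other GFP-BM REPOP animals its reads were 39.0% to 75.0% (replicate 1), 23.8% to 186% (replicate 3) and 18.2% to 37.5% (replicate 4) of those of Ccl21b. Ccl21a was above all 4 other copies in replicate 3 in cortex, with 20 reads against 12, and in thalamus, with 13 reads against 7. How reads that fit several copies were counted is not given in the sources used here.

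**Figure D3:**
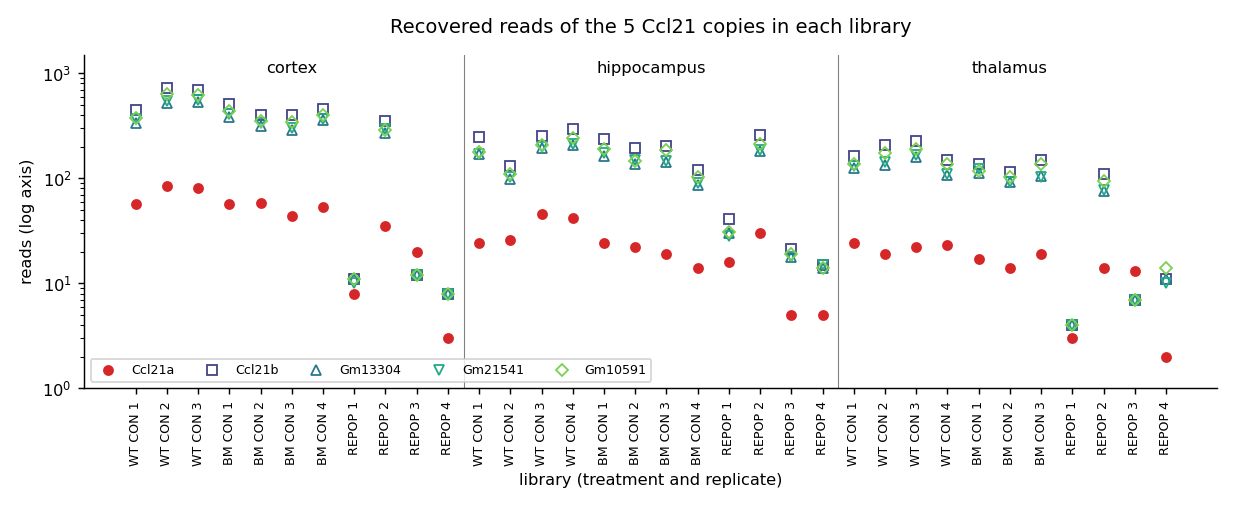
Recovered reads of the 5 Ccl21 copies in each library on a log axis, with libraries in order of region, treatment and replicate (BM CON and REPOP stand for GFP-BM CON and GFP-BM REPOP). In GFP-BM REPOP replicates 1, 3 and 4 the 4 copies other than Ccl21a lie close together (4 to 41 reads), and in replicate 3 Ccl21a lies above them in cortex and thalamus.

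GFP-BM CON mice, which had irradiation and marrow without the inhibitor, had Ccl21 levels slightly under those of WT CON. The sum was 86.9 ± 3.59 FPKM (SD, n = 4) against 110 ± 23.3 (SD, n = 3) in cortex, 32.9 ± 5.43 against 42.1 ± 12.9 (both n = 4) in hippocampus, and 25 ± 0.256 (n = 3) against 34.3 ± 4.25 (n = 4) in thalamus. The differences were -0.31, -0.32 and -0.45 on the log2 scale, with adjusted p values of 0.916, 0.80 and 0.688 by limma. These p values use a spread pooled over the 3 treatments, of which GFP-BM REPOP spread most (SD of the sum 39.8, 25.3 and 9.32 FPKM). In thalamus the sums of GFP-BM CON (24.7 to 25.1 FPKM) and WT CON (28.2 to 37.9 FPKM) did not overlap. None of the 10 genes was called between GFP-BM CON and WT CON in any region, where 0.32%, 0% and 0% of all genes were called in cortex, hippocampus and thalamus. In thalamus 7 of the 10 genes had all GFP-BM CON values below all WT CON values, which held for 8.43% of all genes. These 7 are copies of the Ccl21 and Fam205a groups and do not count as 7 measurements.

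The little studied Fam205a genes were lower in GFP-BM REPOP cortex than in WT CON cortex in all 4 animals. Fam205a2 stood at 11.7, 9.93 and 9.70 FPKM in WT CON cortex, at 7.35, 8.58, 7.30 and 7.78 FPKM in GFP-BM CON cortex and at 4.89, 7.38, 4.62 and 5.68 FPKM in GFP-BM REPOP cortex. WT CON did not overlap with either irradiated group. GFP-BM REPOP replicate 2, at 7.38 FPKM, was the highest of its group and lay within the GFP-BM CON range, and the other 3 lay below it. Fam205a3 and Fam205a4 were 9.77 to 11.8 FPKM in WT CON, 7.19 to 8.51 FPKM in GFP-BM CON and 4.60 to 7.40 FPKM in GFP-BM REPOP.

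The 3 Fam205a genes were the only members called in cortex between GFP-BM REPOP and WT CON, where 0.734% of all genes were called. The differences were -0.90, -0.88 and -0.89 on the log2 scale (adjusted p = 0.0134, 0.0116 and 0.0115 by limma) for Fam205a2, Fam205a3 and Fam205a4, and -0.90 (SE 0.13, adjusted p = 0.00943) for their sum. Without WT CON replicate 1, the sum's adjusted p was 0.0535. Against GFP-BM CON the sum differed by -0.46 (adjusted p = 0.574), and by -0.59 (adjusted p = 0.0372) without GFP-BM REPOP replicate 2. In all, 6 of 10 genes had GFP-BM REPOP values below all WT CON values in cortex, which held for 4.6% of all genes. These 6 are copies of the Ccl21 and Fam205a groups and do not count as 6 measurements.

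In thalamus the Fam205a levels of both irradiated groups lay under those of WT CON. Fam205a2 was 6.79, 5.60, 5.19 and 6.20 FPKM in WT CON, 3.51, 4.15 and 3.98 FPKM in GFP-BM CON, and 2.88, 4.38, 2.89 and 2.39 FPKM in GFP-BM REPOP. The irradiated groups overlapped with each other through GFP-BM REPOP replicate 2. Fam205a2, Fam205a3 and Fam205a4 were the 3 members called against WT CON, at -0.93, -0.94 and -0.93 on the log2 scale (adjusted p = 0.0481, 0.0467 and 0.0471 by limma), where 0.836% of all genes were called. The sum differed by -0.95 (SE 0.16, adjusted p = 0.0428). Leaving out 1 library ended this call for 8 of 11 libraries, and the count of genes called fell to 0 with only both groups in the fit, a stricter filter, median-ratio scaling or the replicate block. For the sum, GFP-BM CON differed from WT CON by -0.59 (adjusted p = 0.131), and GFP-BM REPOP from GFP-BM CON by -0.35 (adjusted p = 1). Values of GFP-BM REPOP below all WT CON values were seen in 8 of 10 genes in thalamus, against 6.87% of all genes. These 8 are the Ccl21 and Fam205a copies and do not count as 8 measurements.

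Relative to the WT CON mean, the Fam205a sum of GFP-BM REPOP replicates 1 to 4 was 47.0%, 70.2%, 44.2% and 55.3% in cortex and 47.7%, 73.0%, 48.7% and 40.9% in thalamus. Replicate 2 was the highest of the 4 in both regions.

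In hippocampus the Fam205a levels of the 3 treatments overlapped. Fam205a2 was 5.10, 3.12, 3.49 and 2.07 FPKM in WT CON, 2.85, 2.99, 3.8 and 2.24 FPKM in GFP-BM CON, and 4.90, 3.49, 2.97 and 3.62 FPKM in GFP-BM REPOP. The sum differed from WT CON by 0.18 on the log2 scale (adjusted p = 0.81 by limma) and, without the 3 libraries of few hippocampus markers, by -0.029. In hippocampus the 4 animals had 143%, 103%, 86.4% and 105% of the WT CON mean of the sum, so that replicate 1 and not replicate 2 was highest. Cortex markers summed to 73.6 to 191 FPKM in the GFP-BM REPOP hippocampi, highest in replicate 1, against 60.0 to 66.1 in WT CON hippocampi. The Fam205a genes, as given below, are higher in cortex than in hippocampus, and the part of the cortex markers was not tested. None of the 10 genes was called in hippocampus between GFP-BM REPOP and WT CON, where 0.0136% of all genes were called. The read counts of the 3 Fam205a copies differed by a median of 0.836% to 1.92% between pairs of copies, so they too are 1 measurement.

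**Figure D4:**
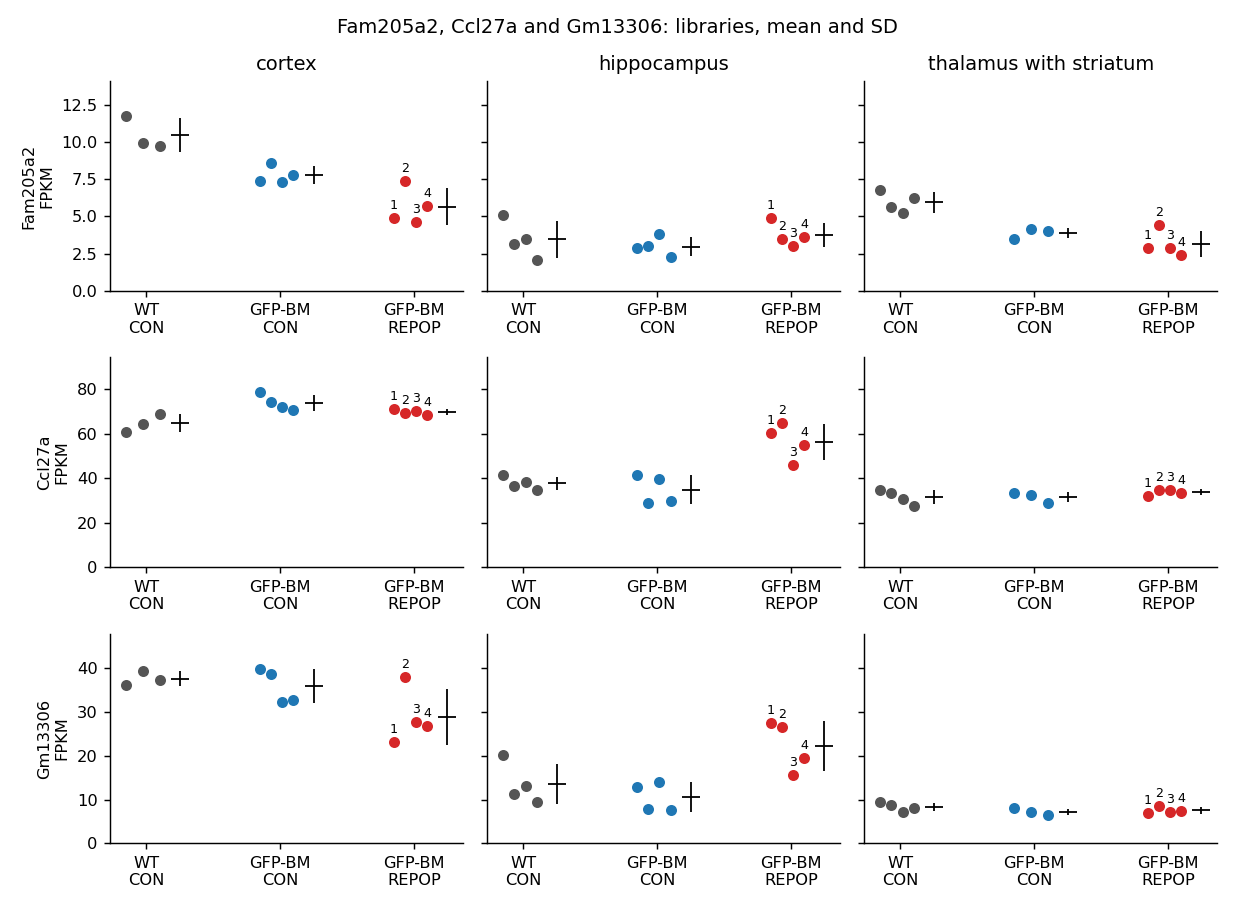
FPKM of Fam205a2, Ccl27a and Gm13306 in each library (points) by region and treatment, with the mean and SD of each group as a cross and replicate numbers above the GFP-BM REPOP points. Fam205a2 lies lowest in GFP-BM REPOP in cortex (5.64 ± 1.25 FPKM, SD, n = 4), and Ccl27a lies highest in GFP-BM REPOP in hippocampus (46.0 to 64.7 FPKM).

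Ccl27a, the most abundant of the 10 genes per length, differed less between treatments in cortex and thalamus than in hippocampus, where it stood higher in GFP-BM REPOP mice. It stood at 41.4, 36.7, 38.1 and 34.6 FPKM in WT CON hippocampus, at 41.4, 28.7, 39.9 and 29.7 FPKM in GFP-BM CON hippocampus and at 60.4, 64.7, 46.0 and 54.9 FPKM in GFP-BM REPOP hippocampus. All 4 GFP-BM REPOP values were above all 8 control values. In cortex Ccl27a was 64.7 ± 4.08 (SD, n = 3), 74.0 ± 3.48 (n = 4) and 69.8 ± 1.14 FPKM (n = 4), in the order WT CON, irradiated control and repopulated, and in thalamus 31.5 ± 3.10 (n = 4), 31.6 ± 2.39 (n = 3) and 33.6 ± 1.34 FPKM (n = 4). The difference of GFP-BM REPOP from GFP-BM CON in hippocampus was 0.70 on the log2 scale (adjusted p = 0.119 by limma). It was 0.57 (adjusted p = 0.265) against WT CON. In cortex all GFP-BM CON values (70.6 to 78.7 FPKM) lay above all WT CON values (60.8 to 68.9 FPKM). That difference was 0.19 on the log2 scale (adjusted p = 0.123 by limma).

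Gm13306, the copy of Ccl27a, had the same direction in hippocampus. It stood at 20.2, 11.3, 13.2 and 9.54 FPKM in WT CON, at 12.9, 7.75, 14.1 and 7.72 FPKM in GFP-BM CON and at 27.5, 26.5, 15.6 and 19.4 FPKM in GFP-BM REPOP. GFP-BM REPOP did not overlap with GFP-BM CON and overlapped with WT CON. Its difference from GFP-BM CON was 1.08 on the log2 scale (adjusted p = 0.191 by limma). Ccl27a and Gm13306 were the 2 of 10 genes with all GFP-BM REPOP values above all GFP-BM CON values in hippocampus, against 4.12% of all genes, and 0 of 10 were called there, against 0.0272%. In cortex Gm13306 was 36.2, 39.5 and 37.3 FPKM in WT CON and 23.2, 38.1, 27.7 and 26.8 FPKM in GFP-BM REPOP, with replicate 2 again the highest. In thalamus Gm13306 ranged from 6.61 to 9.45 FPKM over the 3 treatments, which overlapped. Its cortical difference from WT CON was -0.40 (adjusted p = 0.242), and -0.54 (adjusted p = 0.0256) without replicate 2. Ccl27a had 2.30 to 6.80 times the reads of Gm13306 over the 34 libraries, with a median of 4.24 times, so these copies did not move as 1.

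Whether the step from GFP-BM CON to GFP-BM REPOP differed between cortex and hippocampus was tested directly. It was smaller in cortex by -0.78 on the log2 scale for Ccl27a (SE 0.15, adjusted p = 0.0237 by limma) and by -1.41 for Gm13306 (SE 0.30, adjusted p = 0.0442), where 0.177% of all genes were called. Leaving out 1 library ended at least 1 of these calls for 11 of the 16 libraries. Without the 3 hippocampal libraries of few hippocampus markers neither was called, and the Ccl27a sum differed by -0.90 (adjusted p = 0.103), against -0.95 (adjusted p = 0.019) with them. Cortex markers summed to 191, 102, 73.6 and 95.7 FPKM in the GFP-BM REPOP hippocampal libraries, against 60.0 to 66.1 in WT CON and 45.1 to 59.7 in GFP-BM CON. Ccl27a, as given next, is higher in cortex than in hippocampus, and the part of the cortex markers in this result was not tested.

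Between regions of WT CON mice the Ccl27a and Fam205a groups differed, as did many of all genes tested. Ccl27a was higher in cortex than in hippocampus by 0.78 and than in thalamus by 1.04 on the log2 scale, and Gm13306 by 1.51 and 2.15. The Fam205a genes were highest in cortex, by 1.63 to 1.65 over hippocampus and 0.79 to 0.80 over thalamus, with a difference of hippocampus from thalamus of -0.83 to -0.86. Of the 10 genes, 5 were called between cortex and hippocampus, 6 between cortex and thalamus and 4 between hippocampus and thalamus (limma, animal as random block), against 36.9%, 30% and 17.7% of all genes. Copies within a group do not count as separate measurements, so these counts do not set the 10 genes apart from all genes. The Ccl21 sum ran in the order cortex, hippocampus, thalamus (110, 42.1 and 34.3 FPKM). Its differences of 1.41 (adjusted p = 0.236 by limma), 1.66 (adjusted p = 0.17) and 0.25 (adjusted p = 0.874) were not called. Cortex values of the sum (83.1 to 127 FPKM) did not overlap with those of hippocampus (26.5 to 57.4) or thalamus (28.2 to 37.9). The fit pooled the spread of all 9 groups, GFP-BM REPOP included, and used a single animal correlation for all genes (-0.0386). Ccl21a alone was called between cortex and thalamus, at 1.56 (adjusted p = 0.0427).

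The stretch holds 18 tested genes, of which 8 are not members (Il11ra1, Gm20878, Gm13305, Gm21953, Gm21586, Ccl27b, Il11ra2 and Ccl19). None of these 8, and none of the 8 genes on each side of the stretch, was called in any of the 9 comparisons. In cortex, where the Ccl21 genes differed by -2.16 to -4.18, the differences of GFP-BM REPOP from WT CON ran from -0.86 (Ccl19) to -0.20 inside the stretch, from -0.19 to 0.13 before it and from -0.18 to 0.30 after it. By animal, the median difference of these 8 genes from the WT CON mean in cortex was -0.41, 0.0091, -0.32 and -0.36 in replicates 1 to 4, with replicate 2 again the highest. In hippocampus, 4 of the genes inside the stretch had differences of GFP-BM REPOP from the irradiated controls near that of Gm13306 (1.08), namely Gm21953 (1.08, adjusted p = 0.102 by limma), Ccl27b (1.07, adjusted p = 0.219), Gm21586 (0.96, adjusted p = 0.102) and Gm20878 (0.96, adjusted p = 0.102). Ccl27b has the same coding sequence as Gm13306, so these genes do not count as separate measurements. Gm21586 and Gm20878 ran close in replicates 1 to 4 of GFP-BM REPOP hippocampus. Their differences from the WT CON mean were 0.95, 0.68, 0.18 and 0.55, and 0.97, 0.66, 0.20 and 0.52. Their sequences were not compared. Fam205c, just after the stretch, differed from WT CON in hippocampus by 1.01 (adjusted p = 0.105), more than any of the 10 genes did upward. GFP-BM REPOP replicate 2 was the highest of the 4 animals in all 3 regions for 0 of these 8 genes.

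**Figure D5:**
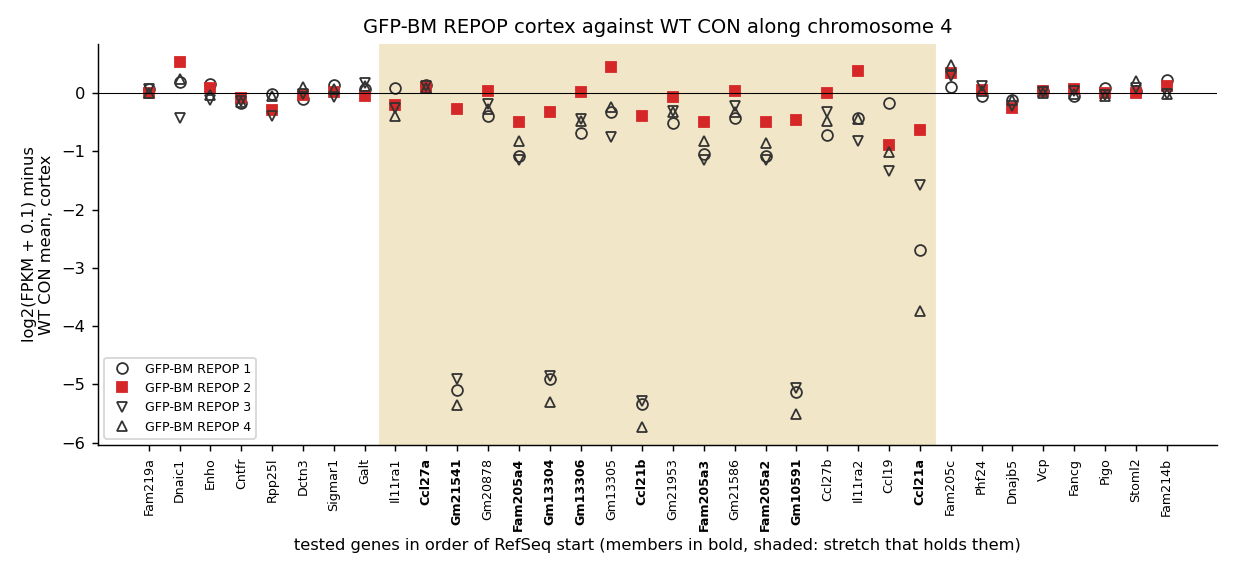
Difference of each GFP-BM REPOP cortex library from the WT CON mean on the log2(FPKM + 0.1) scale (y axis), for the tested genes of the stretch (shaded, members in bold) and 8 on each side in their order on chromosome 4 (x axis). The Ccl21 genes lie far down in replicates 1, 3 and 4 and not in replicate 2 (filled squares). The 8 genes before the stretch lie between -0.44 and 0.53, and the 8 after it between -0.26 and 0.47.

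Of 13 genes listed for the CCL21 and CCL27 pathway, 8 were tested, namely Ccl19, Ccl27b, Ccl28, Ccr10, Ackr2, Pdpn, Il11ra1 and Il11ra2, and none was called in any of the 9 comparisons, the lowest adjusted p being 0.18. Most were at low levels, but Ccl27b ranged from 4.23 to 28.9 FPKM and Il11ra1 from 10.9 to 23.1 FPKM. Ccl19, the other CCR7 ligand, ranged from 0.342 to 2.97 FPKM over the 34 libraries. Ccr10, the receptor of CCL27, ranged from 0.127 to 1.14 FPKM, and the scavenging receptors Ackr2 and Ackr4 from 0.066 to 1.97 and from 0 to 0.637 FPKM. Pdpn, the podoplanin gene of lymphatic vessels and stroma, ranged from 3.88 to 13.7 FPKM. Ccr7, the CCL21 receptor, was not analysed here. Of the other 13 chemokine and receptor genes tested, Cxcr4 (1.33 on the log2 scale, adjusted p = 0.043 by limma) and Cxcl16 (1.11, adjusted p = 0.00649) were called higher against WT CON in GFP-BM REPOP cortex, and none was called in the other 8 comparisons.

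The genes most like the Ccl21 sum were looked for over the 34 libraries, centred on the region. The closest were Gm21075 (Pearson r = 0.891), 3 entries with no symbol and Slc2a5 (r = 0.831), a fructose transporter of microglia. Gm21075 stood at 16.1, 9.54 and 16.5 FPKM in WT CON cortex, at 4.98, 7.73, 5.50 and 6.82 FPKM in GFP-BM CON cortex and at 0.720, 6.17, 0.680 and 0.610 FPKM in GFP-BM REPOP cortex, again with replicate 2 apart. The lowest were the macrophage genes Adgre1 (r = -0.810), Apobec1 (r = -0.809) and Mpeg1 (r = -0.806). Most like the Ccl27a sum were Ccl27b (r = 0.935), Gm21586 (r = 0.868), Gm20878 (r = 0.864) and Gm21953 (r = 0.835), all from the same stretch, and Ier5 (r = 0.832), with Frem3 (r = -0.751), Trp53bp2 (r = -0.746) and Nrp2 (r = -0.746) lowest. Most like the Fam205a sum were an entry with no symbol (r = 0.822), Gm2163 (r = 0.687), Gm21953 (r = 0.647), Gm9780 (r = 0.634) and Pde4c (r = 0.630), with Pdhx (r = -0.713), Gosr1 (r = -0.684) and Slc25a53 (r = -0.661) lowest. Libraries share animals, treatments and, for copies, reads, so these values describe likeness over these libraries and nothing more.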

How the data were processed

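Paired-end RNA-seq reads were aligned by the authors with STAR to mm10, counted per gene with featureCounts and turned into FPKM with edgeR and limma, and the deposited table holds FPKM per gene and library. How reads that map to several places were counted is not given in the sources used here. Values were whole multiples of what 1 read is worth (100.0% within 0.01 read), which gave reads per gene and library.

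The 10 members and all gene lists were chosen with earlier results of these data known. The named genes were all members, a fixed list for the pathway, the tested genes inside the stretch and the 8 nearest on each side, and the 5 most and 3 least like each summed group. Genes with at least 1 FPKM in at least 3 libraries were tested (14710 of 16389, 343 of other biotypes left out) on log2(FPKM + 0.1) with limma 3.58.1 in R 4.3.3, 1 fit per region with all 3 treatments, adjusted by Benjamini-Hochberg over all genes, with a threshold of 0.05. Fold changes on this scale understate the change of low genes. Summed groups replaced the members in a separate fit. Regions were compared in a single limma fit over the 9 groups in which animals entered as random blocks. The p values rest on the spread between animals within groups, pooled over all groups of a fit. For the Ccl21 genes GFP-BM REPOP spread most, and this widens contrasts that leave that group out as well. Alternatives were other pseudocounts, filters, scalings, sets of samples, voom on recovered reads, a replicate block and each library left out. Sequences came from GENCODE and RefSeq. Whole-read precision is limited by counting error, which is large for the lowest Ccl21 values.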

Additional observations from a re-analysis of the deposited data

Results flagged for a closer look

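GFP-BM REPOP replicate 2 stood far above the other 3 animals for the Ccl21 copies in every region. The gap from replicate 2 to the next animal, divided by the whole range of the 4, was 0.991 in cortex, 0.886 in hippocampus and 0.935 in thalamus for Ccl21b. It was 0.988, 0.895 and 0.905 for Gm13304, 0.989, 0.913 and 0.92 for Gm21541, 0.989, 0.905 and 0.893 for Gm10591, and 0.978, 0.887 and 0.92 for the Ccl21 sum, all over the limit of 0.829 for 4 samples. The genes were chosen with these animals' values known and the copies share reads, so the 15 values describe 1 signal in the same animal and are no test. Chance alone passes this limit in about 1 in 20 groups.

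The difference of GFP-BM REPOP from the irradiated controls (GFP-BM CON) was lower in cortex than in hippocampus by -0.78 on the log2 scale for Ccl27a (adjusted p = 0.0237 by limma), by -1.41 for Gm13306 (adjusted p = 0.0442) and by -0.95 for their sum (adjusted p = 0.019). In hippocampus all 4 GFP-BM REPOP animals were above all 4 GFP-BM CON animals for both genes. Both calls were lost without the 3 hippocampal libraries of few hippocampus markers (0 called, adjusted p = 0.103 for the sum), and at least 1 was lost for 11 of 16 libraries left out singly. Cortex markers summed to 73.6 to 191 FPKM in the GFP-BM REPOP hippocampal libraries, against 45.1 to 59.7 in GFP-BM CON, and their part was not tested.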

How the results depend on the processing

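Of the counts of the 10 genes called, 109 of 126 alternatives other than leaving out 1 library stayed within 1.5 times the reported count, and 311 of 330 for the summed groups kept direction and call. In each list the cause of a change was not tested. Except where stated, the number called over all genes under an alternative is not given here. The counts of the 10 genes then cannot be set against all genes, and copies are not separate measurements.

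Between GFP-BM REPOP and WT CON in cortex, 0 genes were called with only both groups or all 9 groups in the fit and 7 with voom on recovered reads, against 3. In thalamus, against 3, 7 were called with a pseudocount of 1 and with no filter on low values, 1 with a pseudocount of 0.01, 0 with a mean FPKM of at least 1, with only both groups and with median-ratio scaling, 8 with all 9 groups and with quantile normalization, and 6 with voom. With all 9 groups, 2 genes were called in hippocampus against WT CON and 2 against GFP-BM CON, and with quantile normalization 3 in thalamus between GFP-BM CON and WT CON. The Fam205a sum in cortex stayed at -0.90 with adjusted p = 0.0693 (both groups only) and 0.133 (9 groups), and the Ccl21 sum was -4.08 (adjusted p = 0.0134) with voom. In thalamus the Ccl21 sum was -2.93 (adjusted p = 0.038) with a pseudocount of 1, -3.36 with no filter (adjusted p = 0.0491) and with 9 groups (adjusted p = 0.00964), -3.41 (adjusted p = 0.0376) with quantile normalization and -3.44 (adjusted p = 0.0453) with voom. The Fam205a sum there was -0.95 with the mean filter (adjusted p = 0.0565) and with both groups only (adjusted p = 0.118), -0.94 (adjusted p = 0.0523) with median-ratio scaling and -0.98 (adjusted p = 0.0526) with voom. With 9 groups the Ccl27a sum in hippocampus was 0.61 (adjusted p = 0.0067) against WT CON and 0.80 (adjusted p = 0.000333) against GFP-BM CON. The Ccl27a difference of GFP-BM CON from WT CON in thalamus was -0.014 for Ccl27a with voom and 0.045 for the sum with quantile normalization.

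Same-numbered libraries of different treatments did not pair (correlations of their deviations from -0.433 to 0.49, never all pairs over 0.1). With the replicate block the thalamic count against WT CON was 0, the Fam205a sum was -0.95 (adjusted p = 0.166), and Ccl27a differed by -0.023 between GFP-BM CON and WT CON.

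Chosen after seeing the data, leaving out the 3 hippocampal libraries with few hippocampus markers gave -0.029 for the Fam205a sum against WT CON and -0.048, -0.015 and -0.028 for Fam205a2, Fam205a3 and Fam205a4. It gave 0 genes called and -0.90 (adjusted p = 0.103) for the Ccl27a sum in the test of cortex against hippocampus, and 0.39 (adjusted p = 0.0525) for the Ccl27a sum between hippocampus and thalamus of WT CON.

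With 1 library left out, genes called against WT CON ranged from 0 (without WT CON replicate 1) to 9 (without GFP-BM REPOP replicate 2) in cortex, 0 to 4 in hippocampus and 0 to 7 in thalamus, where every library moved the count. Over all 14710 genes, 53 were called at that 0 and 104 at that 9 in cortex, and 10 at the 4 in hippocampus. In thalamus 7 were called without WT CON replicate 1, where 1788 of all genes were called. Without GFP-BM REPOP replicate 2 it was 7 as well, where 30 of all genes were. Against GFP-BM CON they ranged from 0 to 7, 0 to 4 and 0 to 4, each highest without GFP-BM REPOP replicate 2. At these highest counts 30, 4 and 4 of all genes were called. For GFP-BM REPOP against WT CON, the Ccl21 sum ranged from -5.15 to -3.40 in cortex (adjusted p = 7.81e-07 without GFP-BM REPOP replicate 2), -2.93 to -1.60 in hippocampus (0.0175) and -4.23 to -2.81 in thalamus (0.000349), and against GFP-BM CON from -4.83 to -3.09 in cortex and -3.78 to -2.37 in thalamus. The Fam205a sum ranged from -1.03 to -0.81 in cortex and -1.12 to -0.84 in thalamus against WT CON, where 8 of 11 libraries ended its call, and from -0.59 to -0.37 in cortex against GFP-BM CON. In hippocampus it ranged from -0.049 (without WT CON replicate 4) to 0.40 for GFP-BM REPOP against WT CON and from -0.37 to 0.073 (without WT CON replicate 1) for GFP-BM CON. Fam205a2, Fam205a3 and Fam205a4 ranged from -0.050 to 0.37, -0.045 to 0.39 and -0.049 to 0.40 for the former and from -0.38 to 0.045, -0.34 to 0.098 and -0.38 to 0.069 for the latter. In thalamus the Ccl27a sum ranged from -0.0012 to 0.10 for GFP-BM REPOP and -0.084 to 0.032 for GFP-BM CON against WT CON, Ccl27a from -0.052 to 0.073 for GFP-BM CON, and Gm13306 from -0.020 to 0.12 between the irradiated groups. Between cortex and thalamus of WT CON 2 to 6 genes were called and the Fam205a sum ranged from 0.71 to 0.88, lowest count without WT CON cortex replicate 1, and the Ccl27a sum between hippocampus and thalamus from 0.26 to 0.43. In the test of cortex against hippocampus 0 to 2 genes were called and the Ccl27a sum ranged from -1.06 to -0.85. For hippocampus against thalamus 0 to 3 genes were called for the step from WT CON and 0 to 1 for the step from GFP-BM CON.

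Limits are set by the 3 or 4 animals per group, by reads shared among copies, and by depth: the lowest Ccl21a values rest on 2 to 20 reads.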
